A study of Rattus norvegicus with 28 samples.

Results

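Ionotropic glutamate receptors are the cation channels that open when glutamate binds at excitatory synapses. Expression of 10 genes of this family was followed in rat hippocampus: the AMPA receptor subunits Gria1, Gria2, Gria3 and Gria4, the NMDA receptor subunits Grin1, Grin2a and Grin2b, and the kainate receptor subunits Grik1, Grik2 and Grik4. The genes were chosen by name, not by their values, but with earlier results of these data known. They were taken from the 15637 gene symbols that could be given to the array's probes. Of 30367 probes on the array, 15 carried an accession of 1 of these genes. The filter on dim probes, which asked that at least 1 group have signal above background on all of its arrays, kept 14 of the 15 probes and left all 10 genes with at least 1 probe.

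Total RNA from the hippocampus of 14 adult male Sprague-Dawley rats was hybridised, 1 rat per array, to 1-colour Agilent gene expression arrays. Sham rats (n = 2) had a sham injury, and TBI rats (n = 3) had a severe fluid-percussion traumatic brain injury, in which a brief pressure pulse is delivered to the brain. The groups TBI+Imipramine, TBI+Prozac and TBI+Zoloft (n = 3 each) had the same injury and received the antidepressant 1 h later; Prozac is fluoxetine and Zoloft is sertraline, both selective serotonin reuptake inhibitors, and imipramine is a tricyclic antidepressant. Tissue was taken 24 h after injury in all 5 groups. The study's methods state 1 dose for the 3 drugs, given i.p., and vehicle for rats without drug; no group without injury received a drug here. The methods state 3 rats per group, and 2 Sham arrays were analysed here. The whole hippocampus was used, so that its subfields were not separated, and in bulk tissue fewer cells of a type and less RNA per cell cannot be told apart.

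In the hippocampus, AMPA receptors carry most of the fast excitatory current, and Gria2 decides how much calcium an AMPA receptor lets through. NMDA receptors, built from the obligatory subunit Grin1 with Grin2 subunits, pass calcium when glutamate release and depolarisation coincide, which makes them central both to synaptic plasticity and to excitotoxic death after brain injury. Kainate receptors adjust transmitter release and excitability, and are prominent at the synapses of dentate granule cells on CA3 pyramidal cells.

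Grik2 was the member whose level passed the test between TBI and Sham, and its promoter is therefore shown. Promoters of 5 of the 10 genes (Gria4, Grin1, Grik1, Grik2 and Grik4) were matched in the RefSeq table for assembly GRCr8. The sequence below covers the 250 bases before the annotated start of Grik2, at chr20:54415284-54415533 on the minus strand of GRCr8, written 5′ to 3′ along the gene. Capitals mark a match, read on the opposite strand, to TGACG, the core of the cAMP response element.

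Grik2 promoter: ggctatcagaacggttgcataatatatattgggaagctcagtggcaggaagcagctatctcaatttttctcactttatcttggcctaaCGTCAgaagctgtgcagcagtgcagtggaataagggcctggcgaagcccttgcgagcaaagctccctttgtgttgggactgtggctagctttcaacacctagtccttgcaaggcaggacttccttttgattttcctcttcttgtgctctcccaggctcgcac

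The 8-base palindrome TGACGTCA, searched on both strands, was found in 0 of the 5 windows, against 1.59% of the 33469 promoter windows of this length in the table. TGACG on either strand (a hit inside TGACGTCA is counted too) occurred 1 time before Grik2 and 2 times before Grin1 and was not found before Gria4, Grik1 or Grik4; it occurred in 18.2% of all windows. GC content was 49.6% before Grik2, against a median of 51.2% over all windows. A match describes letters alone and is not a binding site.

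Levels are given as the log2 signal of a probe relative to the 75th percentile of the array's probes above background, and differences as log2 values of the first-named group minus the second. Between 14676 and 18196 probes per array were above background. The array slides were shared unequally among the groups. Slide 1 held replicate 1 of TBI+Prozac beside the 3 TBI arrays, and slide 2 held the other 8 arrays of treated rats. Slide 3 held both Sham arrays and no other, and these were scanned on another day than all other arrays. Slide, scan day and sham injury therefore cannot be told apart in any comparison with Sham. TBI shared no slide with imipramine or Zoloft, so drug and slide cannot be told apart directly there. Only 1 Prozac array links slides 1 and 2. The median over all 17322 kept probes shifted by 0.20 (imipramine) and 0.15 (Prozac) against TBI and by 0.18 and 0.14 against Sham, and by 0.01 or less after rounding in the other comparisons; differences relative to that shift are given where they matter. Of the markers for hippocampal principal cells, 7 of 8 were measured, C1ql2 among them, and those 7 were above background on all 14 arrays. The remaining marker, Prox1, was above background on 0 arrays.

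**Figure D1:**
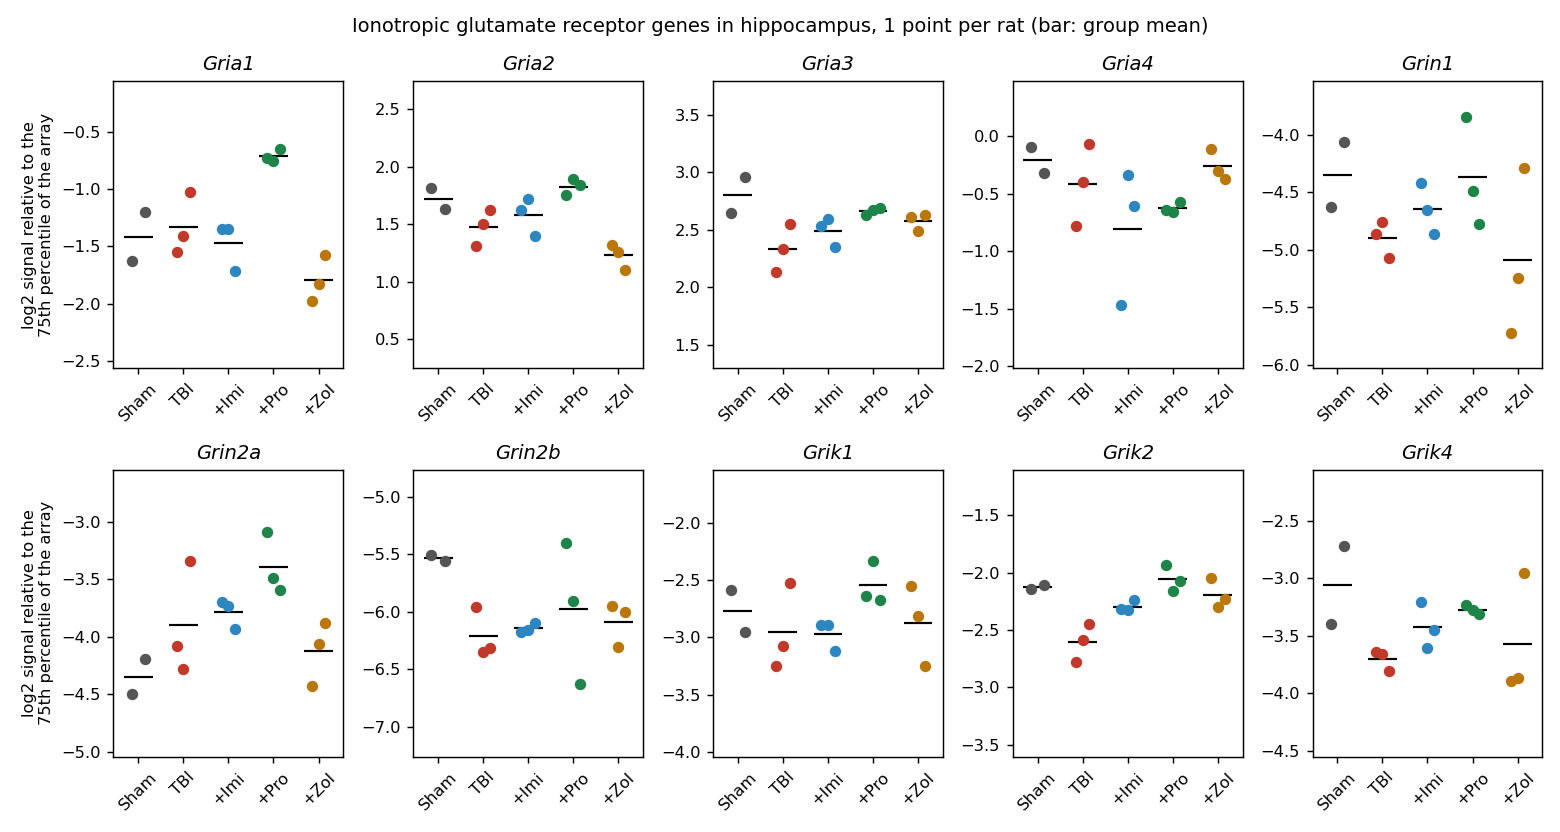
Levels of the 10 receptor genes, 1 panel per gene and 1 point per rat, in Sham (n = 2), TBI and the 3 treated groups (n = 3 each); the y axis is the log2 signal relative to the array's 75th percentile, each panel spans the same 2.5 log2 units, and bars are group means. Gria1 in the 3 TBI+Prozac rats (-0.76 to -0.65) lay above every other rat, and Grik2 in the 3 TBI rats (-2.78 to -2.45) lay below every other rat.

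The comparison of TBI with Sham asks how these genes differed 24 h after injury without a drug, with slide and scan day differing too. Grik2 fell by 28.5% after TBI, and none of the other 9 genes passed the test (limma, Benjamini-Hochberg adjusted p under 0.05 over all kept probes). The call of 1 gene in 10 stands against 16.6% of all kept probes called in this comparison, and 8.32% called lower; without Sham 1 or Sham 2 the 16.6% became 7.33% or 7.41%. The differences were negative for 8 of 10 genes, with a median of -0.36, beside a median of 0.00 over all kept probes. In 6 of 10 genes (Gria2, Gria3, Grin1, Grin2b, Grik2 and Grik4) every TBI array lay below both Sham arrays, a pattern shown by 21.4% of the kept probes with a value on every array of both groups. Grin2b passed the filter on dim probes through Sham alone, its highest group, so the filter favoured lower values elsewhere. The dimmer probes of Gria2 and Gria3 overlapped in this comparison.

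The comparisons of the treated groups with TBI ask how each treated group differed from injured rats without a drug. For imipramine and Zoloft, the slide differed along with the drug. With limma, 0 of 10 receptor genes passed the adjusted threshold for imipramine, Prozac or Zoloft, where 2.85%, 0.00577% and 1.38% of all kept probes did. These shares moved with single arrays, farthest as follows: without TBI+Imipramine 2 the first was 0.0749%, without TBI+Prozac 1 the second was 0.703%, and without TBI+Zoloft 3 the third was 0.00576%. At an unadjusted p under 0.05 the limma fit gave 1 gene for imipramine (Grik2), 4 for Prozac (Gria1, Gria2, Gria3 and Grik2) and 2 for Zoloft (Gria1 and Grik2), beside 19.7%, 10.1% and 15.2% of all kept probes. The methods' t-test with its fold limit gave 1, 4 and 1 genes without adjustment, beside 14.1%, 6.31% and 8.13% of all kept probes, and 0 after adjustment. These 3 comparisons share the TBI rats with each other and with the comparison of TBI with Sham.

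Against Sham, 2 of 10 genes were higher in TBI+Prozac (Gria1 and Grin2a), where 14.9% of all kept probes passed and 11.7% were higher. In TBI+Imipramine and in TBI+Zoloft, 0 of 10 genes passed with limma, against 23.4% and 5.95% of all kept probes. Leaving out Sham 1 took the shares for Prozac and Zoloft to 4.09% and 1.37%, leaving out Sham 2 took them to 6.18% and 2.59%, and the share for imipramine fell as low as 11.4%, without Sham 2. At the unadjusted level, 1 gene in each had an unadjusted p under 0.05 (Grin2b and Gria2), beside 36.6% and 22.3% of all kept probes. Grin2b was kept by the filter on dim probes through Sham alone. The methods' t-test gave 2 genes in each without adjustment, beside 32.9% and 13.2%. A moderated F test asked for any difference among the 3 drugs. It was passed by 1 of 10 genes (Gria1), against 3.18% of all kept probes. That share was 0.0689% without TBI+Zoloft 2, 0.311% without TBI+Imipramine 2 and 0.196% with median-centred arrays, but 5.21% of probes above background on all arrays.

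**Figure D2:**
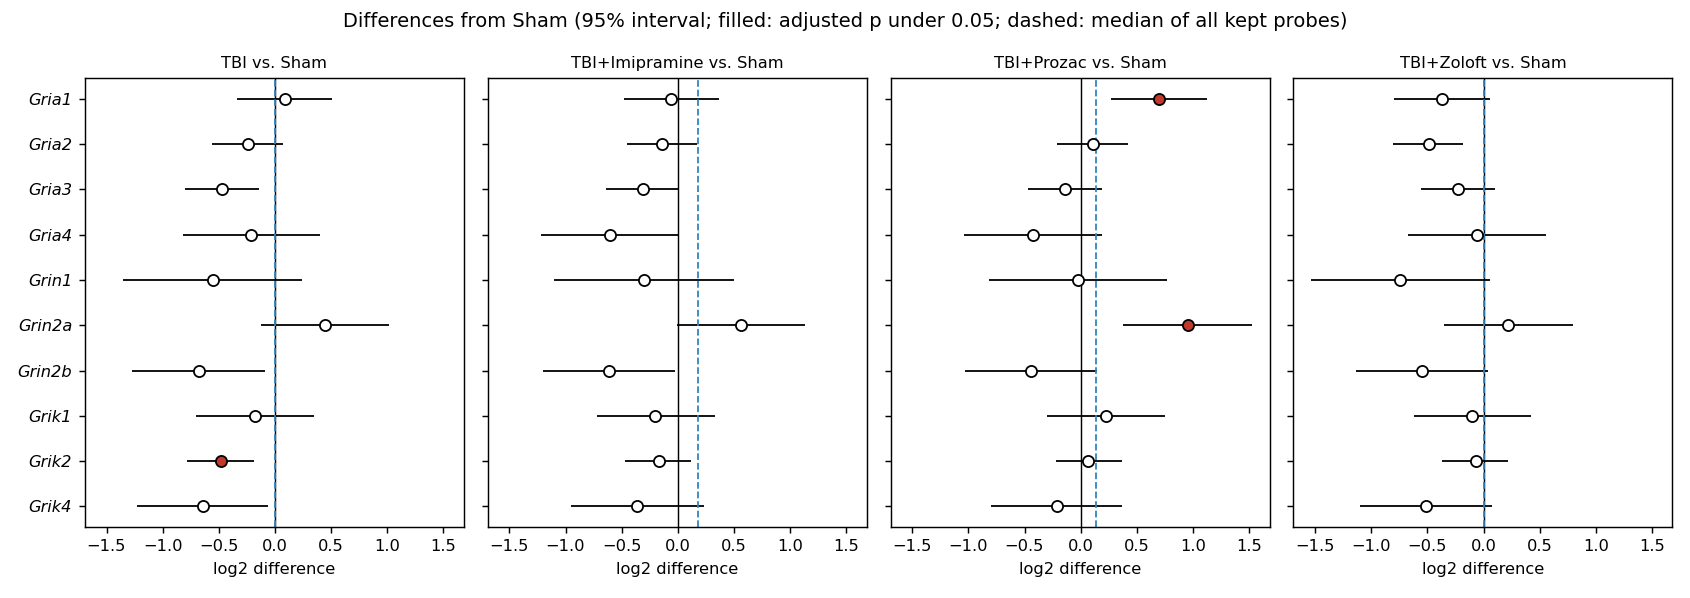
Log2 differences of the 10 genes from Sham in TBI and the 3 treated groups, with 95% intervals from the limma fit; filled points passed the adjusted threshold and the dashed line is the median of all kept probes. Grik2 (-0.48) is filled in TBI, and Gria1 (0.70) and Grin2a (0.96) are filled in TBI+Prozac.

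Among the AMPA receptor subunits, Gria1 set the treated groups apart. Gria1 encodes the subunit whose phosphorylation and synaptic insertion accompany long-term potentiation. Its log2 level was -1.63 and -1.20 in the Sham rats and -1.55, -1.41 and -1.03 in the TBI rats. It was -1.35, -1.35 and -1.71 with imipramine, -0.73, -0.76 and -0.65 with Prozac, and -1.97, -1.83 and -1.57 with Zoloft. The 3 Prozac values were the highest of all 14, the 3 Zoloft values lay below all TBI values and overlapped imipramine, and Sham and TBI overlapped. The difference among the 3 drugs passed the limma F test (adjusted p = 0.022), but no longer did with slide as a fixed block, with the replicate number as a block, without the filter on dim probes, or when any of 6 single arrays was left out: TBI+Imipramine 1 or 2, TBI+Prozac 1, 2 or 3, or TBI+Zoloft 2.

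TBI+Prozac exceeded Sham for Gria1 by 0.70 (SE 0.20, limma adjusted p = 0.034), a 1.62-fold higher signal; with the shift of all probes taken off, this was 0.56. Leaving out Sham 1 gave 0.48 (limma adjusted p = 0.26), and the call was also lost without TBI+Prozac 1 (0.081), 2 (0.058) or 3 (0.09). Among 5 other alternatives under which it did not hold were normexp background correction (0.55) and median-centred arrays (0.49), a scaling added after the data were seen. Against TBI the difference was 0.61 with Prozac (SE 0.18, unadjusted p = 0.00435, limma adjusted p = 0.34) and -0.46 with Zoloft (SE 0.18, unadjusted p = 0.0232, limma adjusted p = 0.23), neither past the threshold. On slide 1, which held TBI and 1 Prozac array, that Prozac array exceeded the TBI mean by 0.60, and the other Prozac arrays, on slide 2, exceeded it by 0.62. TBI itself differed from Sham by 0.09 (95% interval -0.34 to 0.51).

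Gria2, the subunit that limits calcium entry, had its highest group mean with Prozac and its lowest with Zoloft, as did Gria1. The brighter of its 2 probes gave 1.81 and 1.63 in Sham, 1.31, 1.5 and 1.62 in TBI, and 1.62, 1.72 and 1.40 with imipramine. It gave 1.75, 1.89 and 1.84 with Prozac and 1.32, 1.26 and 1.1 with Zoloft. Prozac lay above all TBI values and Zoloft lay below both Sham values and overlapped TBI by 1 array. The difference among the drugs had a limma adjusted p = 0.055, and Zoloft against Sham was -0.49 (SE 0.14, limma adjusted p = 0.066). That last difference passed under 5 other settings, among them quantile normalisation at -0.56. The dimmer Gria2 probe gave -0.45 (SE 0.21, limma adjusted p = 0.23) for the same comparison.

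Gria3, a subunit that pairs with Gria2 in hippocampal neurons, came near the threshold after injury. Its brighter probe read 2.65 and 2.96 in Sham and 2.13, 2.33 and 2.55 in TBI, with no overlap. TBI was lower by a difference of -0.47 (SE 0.15, limma adjusted p = 0.051). The value crossed the threshold under 6 alternatives other than leaving out arrays, such as -0.51 with quantile normalisation, and also without TBI 3, at -0.58. The treated groups lay between 2.35 and 2.69, and the dimmer Gria3 probe, from another transcript accession, read -0.25 (SE 0.26) for TBI against Sham.

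Gria4, a subunit with fast kinetics found in interneurons and other cells, showed no called difference. The largest for its brighter probe was -0.60 in TBI+Imipramine against Sham (SE 0.28, limma adjusted p = 0.14), and -0.79 with the shift of all probes taken off. The 3 imipramine rats read -1.47, -0.34 and -0.61, all below the Sham values of -0.09 and -0.32, and the first of them lay far from the other 2. This difference passed under 4 other scalings, between -0.79 with quantile normalisation and -0.87 with median-centred arrays. These scalings use the same signals of the same arrays and are not separate support. Both Gria4 probes gave negative differences in that comparison, the dimmer one -0.66 (SE 0.35).

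**Figure D3:**
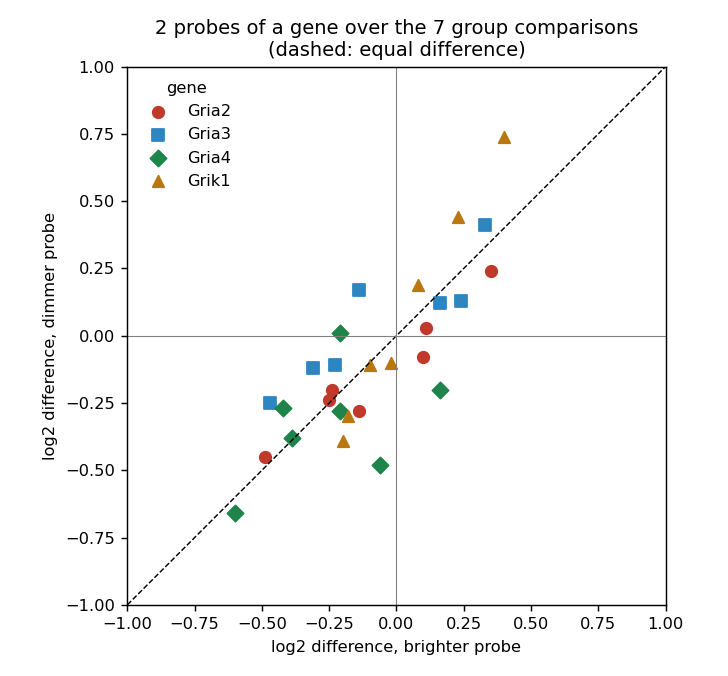
Log2 differences in the 7 group comparisons for the 4 genes with 2 kept probes (Gria2, Gria3, Gria4 and Grik1), with the brighter probe on the x axis and the dimmer probe on the y axis; the dashed line marks equal differences. All 4 genes had the same sign by both probes for TBI against Sham, and 3 of 4 did for each drug against TBI.

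Among the NMDA receptor subunits, Grin2a rose in TBI+Prozac against Sham and the others passed no test. Grin2a encodes the subunit that dominates NMDA receptors of the mature forebrain. Its log2 level was -4.50 and -4.19 in Sham, -4.08, -4.28 and -3.34 in TBI, and -3.70, -3.73 and -3.93 with imipramine. It was -3.09, -3.49 and -3.59 with Prozac and -4.43, -4.06 and -3.88 with Zoloft. All Prozac and all imipramine values lay above both Sham values, while TBI and Zoloft overlapped Sham. The difference of TBI+Prozac from Sham was 0.96 (SE 0.26, limma adjusted p = 0.031), a 1.94-fold higher signal, and 0.81 with the shift of all probes taken off.

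This Grin2a call did not hold under 7 alternatives other than leaving out arrays, and normexp background correction gave 0.35. It was also lost without Sham 1 (0.80, limma adjusted p = 0.19), Sham 2 (1.11, adjusted p = 0.082) or TBI+Prozac 1 (0.81, adjusted p = 0.11). Against TBI, Prozac differed by 0.51 (SE 0.24, limma adjusted p = 0.50); the Prozac array on the slide of the TBI arrays exceeded the TBI mean by 0.81 and the other 2 by 0.36. TBI against Sham gave 0.45 (SE 0.26, limma adjusted p = 0.28), so that Grin2a and Gria1 were the members with a positive difference after injury.

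Grin1 and Grin2b were dim on these arrays. The kept probe of Grin1, the subunit every NMDA receptor needs, was above background on all 14 arrays and ranged from -5.72 to -3.84; its TBI values (-4.86, -4.76 and -5.07) lay below both Sham values (-4.63 and -4.06), with a difference of -0.55 (SE 0.37, limma adjusted p = 0.34). The other Grin1 probe was above background on 1 array and was not tested. Grin2b, the subunit that prevails early in development and lengthens NMDA currents, read -5.51 and -5.56 in Sham and -5.96, -6.35 and -6.32 in TBI, where it was above background on 1 of 3 arrays. It differed by -0.68 (SE 0.27, unadjusted p = 0.0282, limma adjusted p = 0.11). Its probe was kept through Sham alone, so the filter favoured a lower level in the groups compared with Sham. In all treated groups together Grin2b values ran from -6.63 to -5.40, with 2 of 3 arrays of each above background.

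Among the kainate receptor subunits, Grik2 fell after TBI. Grik2 encodes a subunit that forms channels by itself and with Grik4 and Grik5, and is strongly expressed in CA3 pyramidal and dentate granule cells. Its log2 level was -2.14 and -2.11 in Sham and -2.78, -2.59 and -2.45 in TBI. It was -2.32, -2.33 and -2.24 with imipramine, -1.93, -2.16 and -2.07 with Prozac, and -2.05, -2.30 and -2.23 with Zoloft. The 3 TBI values were the lowest of all 14, Prozac and Zoloft overlapped Sham, and imipramine lay just below it. The difference of TBI from Sham was -0.48 (SE 0.14, 95% interval -0.78 to -0.19, limma adjusted p = 0.029).

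The Grik2 difference kept its sign and lay between -0.40 and -0.56 when any 1 array of either group was left out. It was no longer past the threshold without Sham 1 (limma adjusted p = 0.12), Sham 2 (0.15), TBI 1 (0.054) or TBI 2 (0.067), when only the groups compared were fitted (0.21), without the filter on dim probes (0.092) or with the replicate number as a block (0.053). In TBI+Imipramine the difference of Grik2 from Sham was -0.17 (SE 0.14, limma adjusted p = 0.38), but -0.42 to -0.44 and past the threshold under 4 other scalings. In TBI+Prozac it was 0.07 (95% interval -0.22 to 0.37) and in TBI+Zoloft -0.07 (95% interval -0.37 to 0.22).

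Each drug group lay above TBI for Grik2 without overlap, and none of the 3 differences passed the adjusted threshold. For imipramine and Zoloft, drug and slide cannot be told apart directly. The difference from TBI was 0.56 with Prozac (SE 0.12, unadjusted p = 0.000568, limma adjusted p = 0.22), 0.41 with Zoloft (SE 0.12, unadjusted p = 0.005, limma adjusted p = 0.12) and 0.31 with imipramine (SE 0.12, unadjusted p = 0.0242, limma adjusted p = 0.18). Among all kept probes with a value on every array, 14.9%, 8.58% and 25.2% lay higher without overlap in these comparisons. The imipramine difference was 0.11 relative to the shift of all probes, and 0.08 with median-centred arrays, while that of Zoloft passed with quantile normalisation (0.41, limma adjusted p = 0.032). On slide 1 the Prozac array exceeded the TBI mean by 0.68, and the 2 on slide 2 by 0.50.

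Grik4 and Grik1 had no called difference. Grik4, a high-affinity subunit concentrated in CA3, read -3.40 and -2.72 in Sham and -3.64, -3.66 and -3.81 in TBI, a difference of -0.64 (SE 0.27, unadjusted p = 0.034, limma adjusted p = 0.13). All 3 Prozac values (-3.31 to -3.23) and all 3 imipramine values (-3.61 to -3.21) lay above TBI, with differences of 0.43 and 0.28. One Zoloft rat, at -2.95, stood far above the other 2, at -3.89 and -3.87, and without it the difference of Zoloft from Sham went from -0.51 to -0.82 and passed. Grik1, typical of interneurons, ranged from -3.25 to -2.33 over all 14 rats by its brighter probe, and its largest difference was 0.40 for Prozac against TBI (SE 0.22, limma adjusted p = 0.56).

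**Figure D4:**
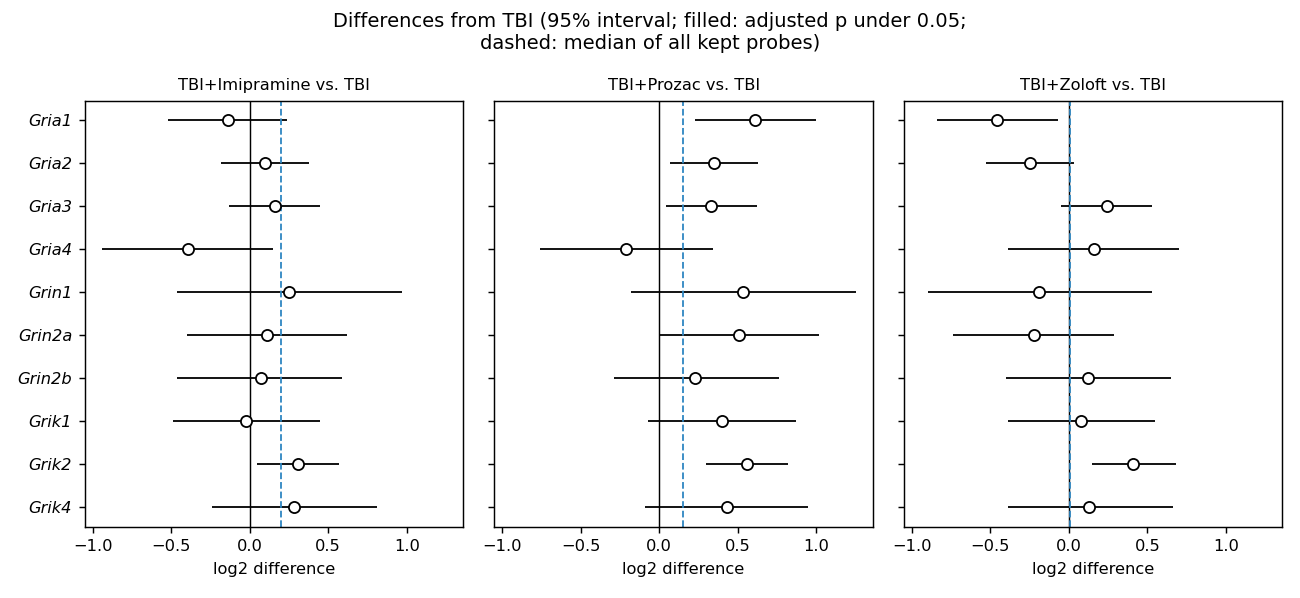
Log2 differences of the 10 genes from TBI in the 3 treated groups, with 95% intervals from the limma fit; the dashed line is the median of all kept probes and no point is filled, since none passed the adjusted threshold. In TBI+Prozac 9 of 10 genes were positive, with Grik2 (0.56) and Gria1 (0.61) the largest.

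Most of the 10 genes had a positive difference from TBI with each drug, and a difference between the drugs was not tested for the group. Against TBI, 9 of 10 differences were positive with Prozac (median 0.42, with 0.15 over all kept probes), 6 with Zoloft (median 0.10, with 0.01) and 7 with imipramine (median 0.11, with 0.20). Relative to the shift of all probes, 9 remained above it with Prozac and 6 with Zoloft, but 3 with imipramine. Groups did not overlap and were higher than TBI in 5 genes with Prozac (Gria1, Gria2, Gria3, Grik2 and Grik4), in 2 with imipramine (Grik2 and Grik4) and in 1 with Zoloft (Grik2), beside 14.9%, 25.2% and 8.58% of all probes with a value on every array. Gria1 was lower without overlap in Zoloft, as were 6.77% of all such probes. These counts use the brighter probe of a gene, and the dimmer probes of Gria2 and Gria3 overlapped TBI with Prozac. Against Sham, groups did not overlap and were lower in 4 genes with imipramine (Gria3, Gria4, Grin2b and Grik2), in 1 with Prozac (Gria4) and in 3 with Zoloft (Gria2, Gria3 and Grin2b), with 17.6%, 15.6% and 18.5% of all such probes. They were higher in 1 gene with imipramine (Grin2a) and in 2 with Prozac (Gria1 and Grin2a), with 42% and 36.8% of all such probes. The dimmer Gria3 probe overlapped Sham with imipramine and Zoloft, while the dimmer Gria4 probe, and with Zoloft the dimmer Gria2 probe, lay lower without overlap. Grin2b was kept by the filter through Sham alone. These comparisons share the 2 Sham rats. The SD within a group ran from 0.016 to 0.73 over the 50 combinations of gene and group, with a median of 0.19.

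Among the other subunits of the family, 5 of 8 genes were measured, and 1 was lower after TBI, where 8.32% of all kept probes were lower. Grin2d, an NMDA receptor subunit of interneurons, had mean levels of -1.86 in TBI and -1.11 in Sham, a difference of -0.74 (SE 0.18, limma adjusted p = 0.014). Grin2c (-0.56) and Grik5 (-0.11) did not pass, and Grin3a differed by 0.00. Grin3b, Grik3 and Grid1 were above background on 0 arrays. None of the 5 passed in the other comparisons of 2 groups.

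Of the auxiliary subunits and synaptic pentraxins, which traffic receptors to the synapse and shape their currents, 10 were measured and 3 were lower after TBI, where 8.32% of all kept probes were lower. Neto1, which associates with kainate receptors, had a difference of -0.77 (SE 0.19, limma adjusted p = 0.019). Cacng2, or stargazin, which carries AMPA receptors to the synapse, had -0.57 (SE 0.17, limma adjusted p = 0.043). Shisa7, a transmembrane protein of the family that binds AMPA receptors, had -0.55 (SE 0.15, limma adjusted p = 0.023). The list had 9 of 10 negative differences and a median of -0.42, beside 0.00 over all kept probes. The same 3 genes were lower in TBI+Imipramine against Sham, by differences of -0.59, -0.61 and -0.54, where 3.6% of all kept probes were lower, and 0 of 10 passed in TBI+Prozac or TBI+Zoloft against Sham or in any drug against TBI.

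The list of postsynaptic scaffolds and kinases, which also holds Nsf, Arc and Adarb1, had 23 measured genes. Of these, 1 was higher after TBI and 0 were lower, while 18 differences were negative (median -0.25). Of all kept probes, 16.6% were called after TBI and 8.32% were lower. The called scaffold gene was Homer3, which links metabotropic receptors to calcium stores, at 1.12 (SE 0.25, limma adjusted p = 0.011), a 2.17-fold higher signal. Homer3 was also higher than Sham in TBI+Imipramine (1.55) and TBI+Prozac (1.16). Dlg4, the scaffold PSD-95, was lower in TBI+Zoloft against Sham (-0.59, SE 0.13, limma adjusted p = 0.025). Of the 7 metabotropic glutamate receptors, 0 passed after TBI and Grm5 was higher in TBI+Prozac against Sham (0.58, SE 0.17, limma adjusted p = 0.042). Of 7 genes for glutamate transport and metabolism, 0 passed after TBI and the neuronal transporter Slc1a1 was lower in TBI+Imipramine against Sham (-1.0, SE 0.29, limma adjusted p = 0.026). None of these lists had a called gene in any drug against TBI. Against Sham, 11.7% of all kept probes were higher in TBI+Prozac, 3.6% were lower in TBI+Imipramine and 5.95% were called in TBI+Zoloft. The F test among the 3 drugs called 2 of 23 genes on the scaffold list, 2 of 7 metabotropic receptors and 0 of 7 transport genes, beside 3.18% of all kept probes.

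**Figure D5:**
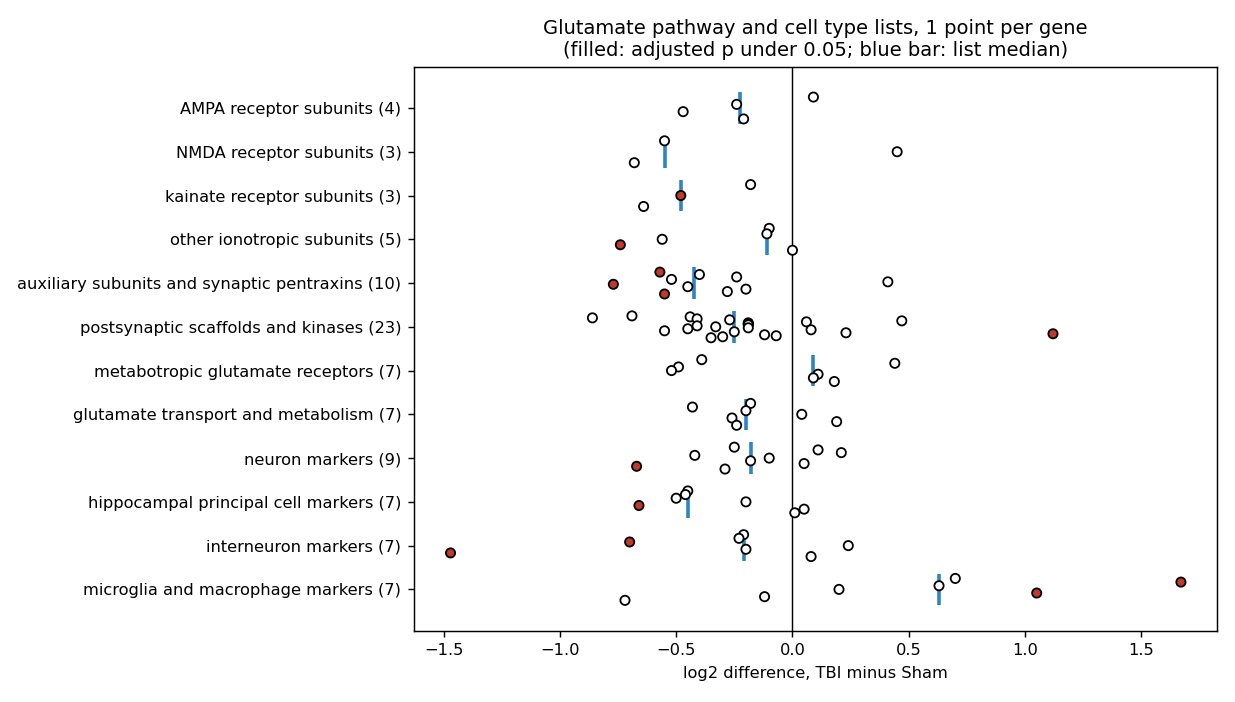
Log2 differences of TBI minus Sham for each measured gene (1 point) of the glutamate receptor, pathway and cell type lists, with the number of genes in parentheses; filled points passed the adjusted threshold and blue bars are list medians. The medians of the auxiliary subunits (-0.42) and the hippocampal principal cell markers (-0.45) lie to the left of 0 and that of the microglia and macrophage markers (0.63) to the right.

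Markers of cell types moved beside these genes, and their part in the receptor differences was not tested. After TBI, 8.32% of all kept probes were called lower. Of 9 measured neuron markers, 1 was lower after TBI (Syt1, -0.67) and the median was -0.18; the log2 of their summed level was 5.02 to 5.11 in Sham, 4.61 to 5.09 in TBI and 5.06 to 5.17 in TBI+Prozac. Of 7 principal cell markers, 1 was lower (Pou3f1, -0.66) with a median of -0.45, and the summed level was 3.36 to 3.68 in Sham, 3.10 to 3.25 in TBI, 3.21 to 3.27 with imipramine, 3.36 to 3.44 with Prozac and 2.93 to 3.13 with Zoloft. All Prozac arrays lay above all TBI arrays in this sum, as they did for Gria1, Grik2, Grik4 and the brighter probes of Gria2 and Gria3. So did 14.9% of all kept probes with a value on every array. Differences of Prozac from TBI were also positive for all 9 neuron, 7 interneuron, 7 microglia and macrophage and 6 oligodendrocyte markers, though the sums of these lists overlapped. They were negative for 1 of 6 astrocyte, 1 of 2 thalamus and 1 of 2 choroid plexus markers.

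Of 7 interneuron markers, 2 were lower after TBI: Sst (-1.47, SE 0.32, limma adjusted p = 0.0085) and Lhx6 (-0.70, SE 0.18, limma adjusted p = 0.02). In this comparison 8.32% of all kept probes were called lower, and 1438 of 17322 higher. Of 7 microglia and macrophage markers, 2 were higher (Cd68, 1.67, and Itgam, 1.05), and of 6 astrocyte markers 1 was higher (Gfap, 1.88) while the other 5 were negative. Mobp of the oligodendrocyte markers (-1.33, 1 of 6 called) and Gpr17 of the oligodendrocyte precursor markers (-1.27, 1 of 3 called) were lower. Both measured markers of the thalamus, which adjoins the dissected tissue, were higher in TBI than in Sham (Prkcd, 1.21, and Lef1, 0.96), and their summed log2 level ran from -2.30 to -0.87 in TBI and from -3.09 to -2.55 in Sham. In TBI+Prozac against Sham, the comparison in which Gria1 and Grin2a passed, 1 of 2 thalamus markers was called higher (Lef1, 0.98; Prkcd was 0.91 and did not pass) and 4 of 7 microglia and macrophage markers were, with Itgam (2.02), Cd68 (1.86) and Csf1r (0.86) the largest. The summed log2 levels in TBI+Prozac ran from -2.24 to -1.67 for the thalamus markers and from 2.19 to 2.79 for the microglia and macrophage markers, the latter beside 1.69 to 2.02 in Sham. In TBI+Imipramine against Sham 2 of 2 and 5 of 7 were higher. Among all kept probes, 11.7% were higher in TBI+Prozac and 3423 of 17322 in TBI+Imipramine, each against Sham. Of 3 measured blood markers 0 passed in limma after TBI. The 2 measured choroid plexus markers varied widely within groups, from -2.35 to 6.45 in summed log2 level among the Prozac rats alone.

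Gria1 had the largest F statistic over the 5 groups among the 10 genes. Of 11859 other kept probes with a symbol, the 5 genes whose levels ran most closely with it over the 14 arrays were Trim2 (Pearson r = 0.903), Lsamp (0.898), Nsf (0.883), Ptprs (0.881) and Zbtb7a (0.879). Nsf, an ATPase of membrane fusion that binds AMPA receptors, was on the scaffold list, and its difference was 0.69 for Prozac against TBI (SE 0.17, limma adjusted p = 0.23) and -0.31 for Zoloft against TBI (SE 0.17, limma adjusted p = 0.41). These correlations share arrays, slides and scaling and are given as a description.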

How the data were processed

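The authors scanned the 1-colour arrays and read them with Agilent Feature Extraction 11.5.1.1, per the file headers. The deposited scanner files hold, per spot, a background-subtracted intensity and 0 or 1 flags of another kind (outlier, saturated, well above background). The deposited series table holds the authors' scaled intensity values, which were used as an alternative; they were linear, with column medians of 0.081 to 0.0897, and checked against the scanner signal they differed from it by 1 constant factor per array, with no centring by probe. The miRNA arrays were not used.

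Control spots and spots with an outlier flag were left out and the remaining spots of a probe averaged. A probe counted as above background where over 0.5 of its spots were. As in the study's methods, signals were scaled to the 75th percentile, here that of those probes, before log2 was taken. The filter on dim probes kept 17322 of 30367. Differences were tested two-sided with limma 3.58.1 (R 4.3.3, lmFit and eBayes) in 1 fit of the 5 groups, with p-values adjusted by Benjamini-Hochberg over all kept probes and called under 0.05; the code was tested on simulated data. Groups came from the sample titles. The labels give separate rats; 14 arrays limit the precision. Replicate numbers named rats, and the labels state no pairing.

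Accessions were matched to symbols in the RefSeq table of GRCr8 (18643 probes, 11902 kept). The file headers name rn4, so the table gave no coordinates for probes. A gene stands by its kept probe of highest mean level; levels were not compared between probes. All 10 genes were named, and from each pathway or cell type list at most the 3 called genes of largest difference. The genes and lists were chosen with earlier results of these data known. The scanner files had no mean signal, so that normexp (offset 50) used the median signal. Other alternatives changed the scaling, filter, flags, block, arrays, probe rule or test.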

Additional observations from a re-analysis of the deposited data

How the results depend on the processing

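Over the alternatives, 1179 of 1243 differences of single receptor genes kept their side of the threshold. These include 1154 that passed under neither setting, of which 65 changed sign. The 1179 therefore say little about how well calls held. Another 26 differences lost their call and 38 gained one, and 0 called differences changed sign. The alternatives share the same arrays, so several together are not separate support. Counts of called genes in the pathway and cell type lists stayed within 1.5 times in 2685 of 3180 cases. The causes of the changes below were not tested, except that fewer arrays or more probes enter some fits. Slide as a fixed block could not be fitted for comparisons with Sham.

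For TBI against Sham (1 gene called), the count was 2 (Gria3 and Grik2) with quantile normalisation, the 75th percentile of all probes, the series table, probes above background on all arrays, slide as a random block (correlation -0.0579) and arrays centred on the median, which was added after seeing the data. Of all tested probes, 16.6% were called in the main fit, and 25.8%, 25.7%, 25.4%, 15.4%, 20.2% and 25.5% under these settings in that order. It was 0 with no filter on dim probes and when only the groups compared were fitted, and 2 (Grin2b and Grik2) by the methods' t-test and 0 after its adjustment. Leaving out 1 array gave 0 to 2.

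For imipramine against TBI (0 called), the methods' t-test gave 1, and for Prozac against TBI (0 called) it gave 4, beside 14.1% and 6.31% of all kept probes. For Zoloft against TBI (0 called), 1 gene (Grik2) was called with quantile normalisation, the 75th percentile of all probes, the series table, median-centred arrays and the methods' t-test. Of all kept probes, 1.38% were called in the main fit, and 4.64%, 4.76%, 4.65%, 4.57% and 8.13% under these in turn. Leaving out 1 array gave 0 in each of these 3 comparisons.

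For imipramine against Sham (0 called), the count was 1 with normexp, 3 with quantile normalisation, 4 with the 75th percentile of all probes, the series table or median-centred arrays (Gria2, Gria3, Gria4 and Grik2, all lower), 2 with only the groups compared, and 2 by the methods' t-test and 1 after its adjustment. Leaving out 1 array gave 0 to 1. For Prozac against Sham (2 called), the count was 0 with normexp, no filter or the adjusted t-test, and 1 with quantile normalisation, only the groups compared or median-centred arrays. The last of these called Gria3, lower. Leaving out 1 array gave 0 to 2. Of all tested probes, 14.9% were called in the main fit, 11.8% with normexp and 4.95% with no filter. Quantile normalisation gave 18.9%, only the groups compared 10.3% and median-centred arrays 20.7%. For Zoloft against Sham (0 called), it was 1 (Gria2) with quantile normalisation, the 75th percentile of all probes, the series table, slide as a random block and median-centred arrays, and 2 by the methods' t-test. Leaving out 1 array gave 0 to 1. For any difference among the drugs (1 called), it was 0 with no filter or slide as a fixed block and 2 when every array had to be above background. Leaving out 1 array gave 0 to 2.

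With the replicate number as a block, counts fell to 0 for TBI against Sham, for Prozac against Sham and for the difference among drugs, and no other count changed. Of all kept probes, 13.8%, 11.4% and 0.595% were then called. Arrays of the same number did not deviate together: their correlations had a median of 0.00472 over 26 pairs, against 0.0224 over 52 pairs of other numbers, so the numbers do not pair the rats.

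Scaling also moved the direction of calls over all probes. Of probes called in imipramine against Sham, 3423 of 4046 were higher, but 2542 of 5198 with quantile normalisation; in Prozac against Sham these were 2031 of 2579 and 1691 of 3267, in Zoloft against Sham 720 of 1031 and 1179 of 2178, in Zoloft against TBI 201 of 239 and 469 of 803, and in imipramine against TBI 489 of 494 and 44 of 50. In TBI against Sham 1438 of 2879 were higher, and 1091 of 2887 with normexp. Signal over background limits Grin2b, above background on 9 of 14 arrays.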
